A study of Rattus norvegicus with 6 samples.

Results

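The miR-17-92 and miR-106b-25 clusters were examined in rTDSCs, stem cells isolated from the patellar tendon of 8-week-old male SD rats, with and without cyclic stretch. The 9 members were all array miRNAs whose name was rno-miR-17-5p, rno-miR-18a, rno-miR-19a, rno-miR-20a, rno-miR-19b or rno-miR-92a (miR-17-92) or rno-miR-106b, rno-miR-93 or rno-miR-25 (miR-106b-25), without their star arms, among 677 miRNAs on the array. The loading group held 3 samples stretched along 1 axis at 0.5 Hz with 10% elongation for 8 h a day over 7 days, on collagen-coated silicone plates, and the non-loading group held 3 static samples, also of day 7. The labels give passage 3 for all cells and the methods passages 1 to 3. Colonies were mixed at passage 0, and nothing in the labels says that the samples came from separate animals or cultures, so the p-values measure the spread between these samples. The RNA of every sample went onto a one-colour Agilent array of its own, all 6 of them being parts of a single slide.

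Both clusters are transcribed as 1 precursor each, from which several hairpins are cut. MYC and E2F factors are known to drive them, and their miRNAs are known to promote proliferation and survival, among other ways by restraining the cell-cycle inhibitor p21 and the pro-apoptotic BIM. Members with the same seed, the bases near the 5′ end that pair with target mRNAs, are thought to share most targets, so that relatives from different clusters can act on the same transcripts.

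In RefSeq (GRCr8) the mature sequences of miR-17-92 lay at chr15:98587861-98588622 on the plus strand, within 762 bases. Those of miR-106b-25 lay at chr12:22156652-22157123 on the minus strand, within 472 bases and inside the span of Mcm7, which encodes a subunit of the replicative helicase. The arrays were annotated on an older build, so these positions describe the RefSeq genes and not the probes. The sequences are shown because the seed, in capitals (bases 2 to 8), sets the family of each member and because the rest shows how close cluster mates and family mates are.
rno-miR-17-5p: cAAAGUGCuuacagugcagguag
rno-miR-20a: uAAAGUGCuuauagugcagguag
rno-miR-106b: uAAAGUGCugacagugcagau
rno-miR-93: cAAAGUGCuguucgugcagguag
rno-miR-18a: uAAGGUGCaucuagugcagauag
rno-miR-19a: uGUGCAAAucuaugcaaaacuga
rno-miR-19b: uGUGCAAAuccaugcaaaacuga
rno-miR-92a: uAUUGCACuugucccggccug
rno-miR-25: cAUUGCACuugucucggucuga

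The 9 members carried 4 seeds. AAAGUGC was shared by miR-17-5p and miR-20a of the first cluster with miR-106b and miR-93 of the second. AUUGCAC was shared by miR-92a and miR-25, GUGCAAA by miR-19a and miR-19b, and AAGGUGC occurred in miR-18a alone among the members. Compared base by base from the 5′ end, miR-19a and miR-19b differed at 1 of 23 bases and miR-17-5p and miR-20a at 2 of 23, miR-92a and miR-25 as well as miR-20a and miR-106b differed at 3 of 21, and miR-106b and miR-93 at 5 of 21. The files hold no probe sequences, so how far a probe also reads such a close relative was not tested, and the values of all members with a family mate are uncertain in this respect. miR-17-5p, miR-19b and miR-92a were each encoded at 2 RefSeq loci with the same mature sequence, the other one within the paralogous cluster on chromosome X (hairpins Mir106a, Mir19b2 and Mir92a2). For these 3 miRNAs the array cannot tell the loci apart.

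Arrays were made comparable by dividing each by its own 75th percentile, and values below are signals as a percentage of that percentile, summed over the probes of a miRNA. Between 140 and 186 miRNAs were detected per array. The percentile was 120.5 to 177.4 times the standard deviation of the negative-control spots, and 0 spots were saturated. The cells carried mesenchymal miRNAs, of which miR-21, miR-199a-3p, miR-199a-5p, miR-214 and miR-143 were detected on all 6 arrays and miR-145 on 3. In contrast, 0 of 4 muscle and 0 of 7 epithelial markers were detected, and of 6 blood markers only miR-223 was. Endothelial miR-126 was detected on all arrays, with 35 of its 120 spots well above background.

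Detection separated the members into bright and dim ones. Each had 2 probes with 10 spots per array. For miR-20a, miR-19b, miR-92a, miR-106b, miR-93 and miR-25, all 60 spots of the brighter probe were well above background. The brighter probe of miR-17-5p reached this in 31 of 60 spots, that of miR-18a in 17 and that of miR-19a in 3. The second probe was also bright for miR-20a, with 60 of 60 spots, and for miR-106b, with 51, but it gave 13 spots for miR-19b, 4 for miR-25, 3 for miR-92a and 0 for miR-93, miR-17-5p, miR-18a and miR-19a. The scanner software called 7 members detected on every array. miR-18a was detected on 2 arrays of each group and miR-19a on 1 loading array, so neither was tested. Dim probes were seen above background mainly on the same 3 arrays: miR-17-5p had 9 such spots on non-loading replicate 2 and 10 on loading replicates 1 and 3, but 0 or 1 on the others. These were also the arrays with the most miRNAs detected, 176, 186 and 178, against 140 to 153 on the rest.

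**Figure D1:**
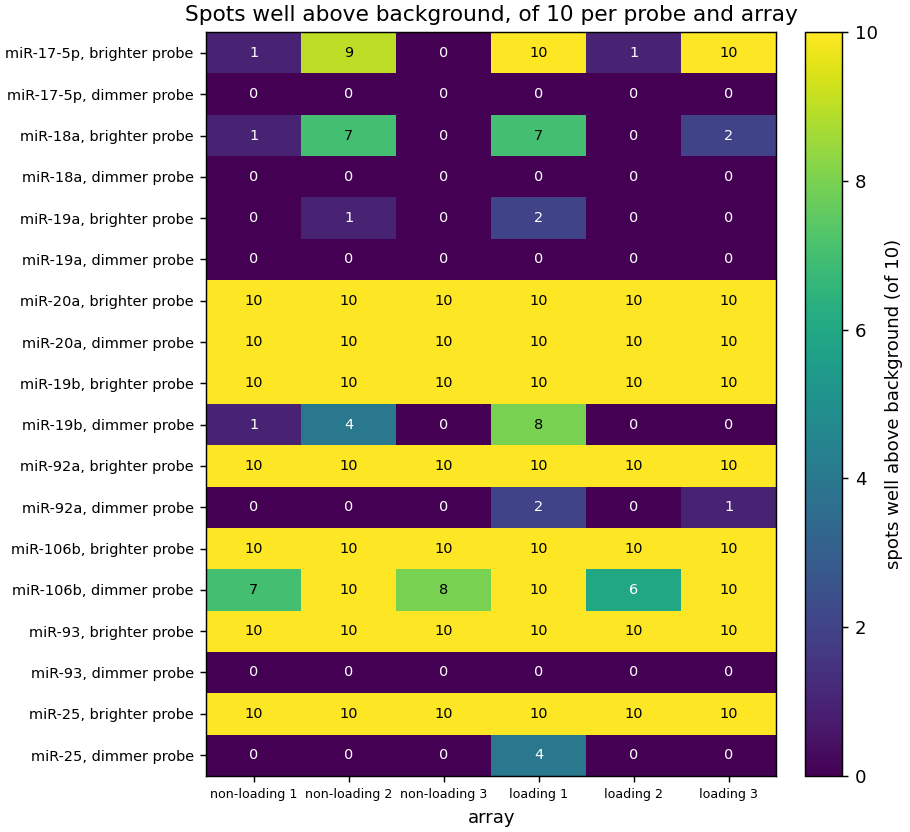
Number of spots well above background, out of 10, for the brighter and the dimmer probe of each member (rows) on each array (columns). The brighter probes of 6 members were above background in every spot, while those of miR-17-5p, miR-18a and miR-19a were so mainly on non-loading replicate 2 and loading replicates 1 and 3.

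In the miR-17-92 cluster, miR-20a, a member of the AAAGUGC family, gave 36.2%, 39.6% and 30.8% in non-loading replicates 1, 2 and 3 and 38.6%, 42.4% and 38.2% in loading replicates 1, 2 and 3. Non-loading replicate 3 stood below the rest, and the groups overlapped. miR-19b, of the GUGCAAA family that is known to account for much of the oncogenic activity of the cluster, gave 31.7%, 40.0% and 34.8% without and 44.1%, 35.3% and 37.7% with loading. Here the lowest value was that of non-loading replicate 1 and the highest that of loading replicate 1. miR-92a, of the AUUGCAC family and known for its anti-angiogenic action on integrin alpha5, gave 26.4%, 24.5% and 18.9% without and 24.6%, 24.5% and 25.4% with loading. Its 3 loading values lay within 1 percentage point of each other, and all fell between the highest and the lowest non-loading value.

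The dim members of miR-17-92 varied far more in relation to their level. miR-17-5p gave 3.31%, 3.55% and 1.99% in non-loading and 5.41%, 2.80% and 4.59% in loading rTDSCs. Loading replicates 1 and 3 were above all non-loading arrays, but loading replicate 2 was below 2 of them. The dimmer of its probes had a mean intensity under background in both groups (-1.68 and -0.449 intensity units), and on the brighter probe alone the values were 3.57%, 3.85% and 2.93% without and 5.23%, 3.47% and 4.64% with loading. miR-18a, with the seed AAGGUGC, gave 2.30%, 3.34% and -0.255% without and 2.51%, 2.48% and 2.69% with loading. miR-19a gave 0.571%, 1.53% and -0.242% without and 2.04%, 0.674% and 1.68% with loading. Both were negative on non-loading replicate 3 after background subtraction, both overlapped between the groups, and no fold change is given for them.

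In the miR-106b-25 cluster all 3 members were bright, with miR-93 the lowest. miR-106b, an AAAGUGC member known to restrain p21, gave 39.0%, 39.8% and 31.5% in non-loading and 39.8%, 41.4% and 37.7% in loading rTDSCs. miR-93, of the same family, gave 12.2%, 13.2% and 10.3% without and 14.6%, 12.4% and 13.2% with loading. miR-25, of the AUUGCAC family and known to target BIM, gave 30.8%, 33.3% and 28.9% without and 32.4%, 32.8% and 33.8% with loading. For all 3 the lowest value was that of non-loading replicate 3, and the groups overlapped because of non-loading replicate 2 or, for miR-106b, non-loading replicates 1 and 2.

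**Figure D2:**
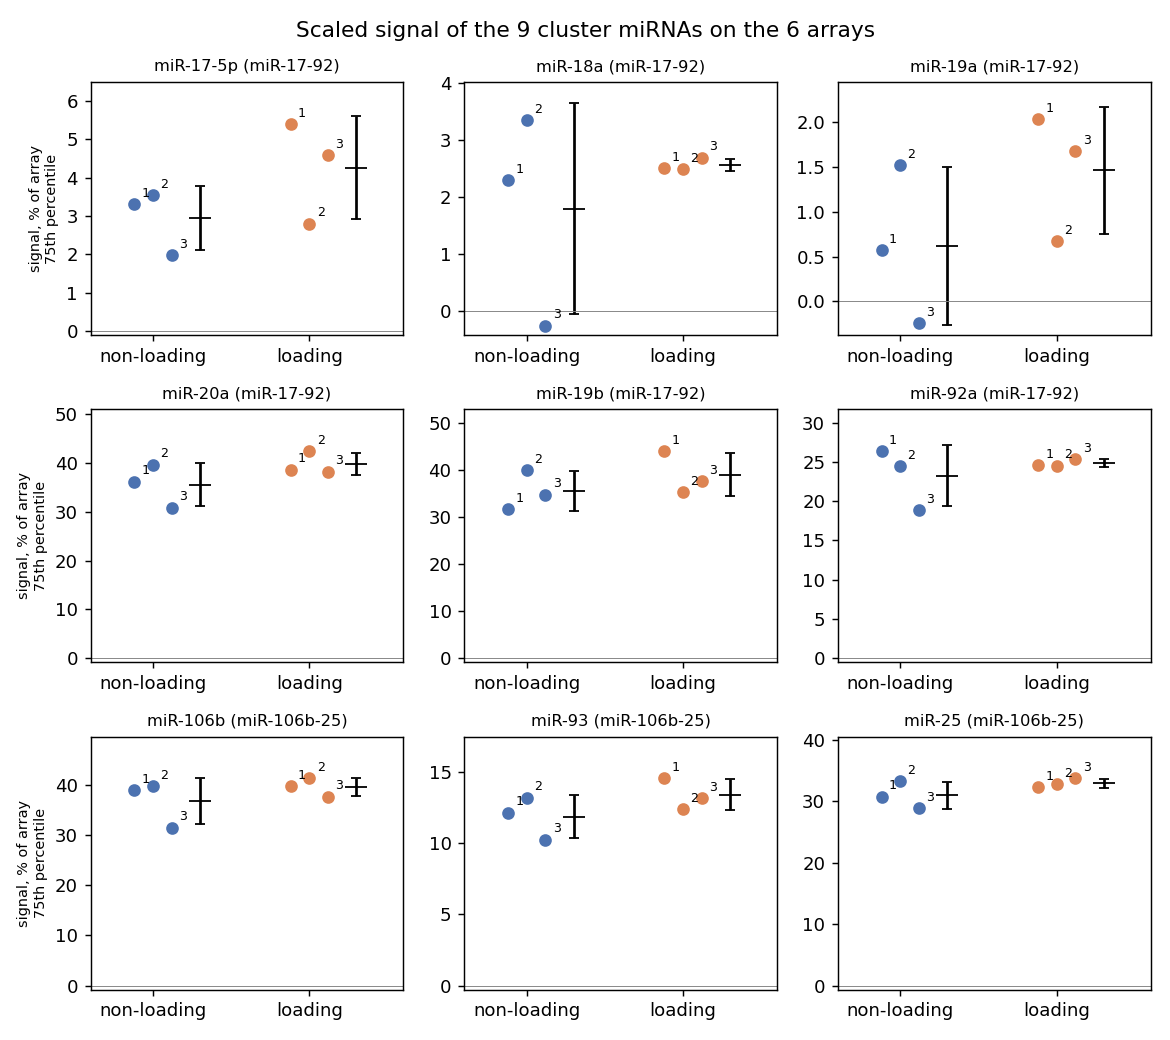
Signal of each member as a percentage of the array's 75th percentile, on a linear axis of its own per miRNA, with points numbered by replicate and bars for the mean ± SD (n = 3). The groups overlapped for all 9 members, and non-loading replicate 3 was the lowest array for all but miR-19b.

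With mechanical loading, 0 of the 7 members tested passed an adjusted p of 0.05 in limma, beside 0 of 148 miRNAs on the whole array (0%), and 0 had an unadjusted p under 0.05, beside 14 of 148 (9.46%). The methods' test, which uses the pooled variance of each miRNA on its own, likewise gave 0 members at either threshold and 15 and 2 of 148 miRNAs at the unadjusted and the adjusted one. For 0 members did the groups separate without overlap, against 23 of 148 miRNAs (15.5%), of which 19 were higher (12.8%) and 4 lower (2.70%) under loading. In such bulk samples, fewer cells of a type and less RNA per cell cannot be told apart. All 7 group means were higher under loading, as were 99 of the 148 (66.9%), and the median log2 change was 0.14 for the members and 0.06 for all miRNAs. However, all 7 were lower under normexp background correction and 4 of 7 were lower with a percentile over all probes. Normexp moved these medians to -0.36 and -0.45, and the percentile over all probes moved them to -0.019 and -0.090. In both settings the members' median thus lay above that of all miRNAs. All 7 members were higher again once outlying background values had been replaced ahead of normexp.

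Within miR-17-92 the log2 change was 0.52 for miR-17-5p (standard error 0.32, 95% interval -0.26 to 1.31), 0.17 for miR-20a (0.12, -0.11 to 0.45), 0.14 for miR-19b (0.13, -0.18 to 0.45) and 0.11 for miR-92a (0.14, -0.22 to 0.44). Within miR-106b-25 it was 0.18 for miR-93 (0.12, -0.12 to 0.48), 0.11 for miR-106b (0.11, -0.16 to 0.39) and 0.09 for miR-25 (0.08, -0.11 to 0.29). The adjusted p in limma was 0.736 for miR-92a and 0.724 for the other 6, and the exact permutation p (two-sided, 3 arrays against 3, smallest possible 0.1) was 0.3 for miR-17-5p, miR-20a, miR-93 and miR-25, 0.4 for miR-19b and miR-106b and 0.7 for miR-92a. The intervals of the 6 bright members ended at 0.48 or below. On its brighter probe alone, miR-17-5p gave a difference of 0.35 (standard error 0.18, limma adjusted p = 0.515). The groups were unevenly placed on the slide, with the 3 non-loading arrays and loading replicate 1 in row 1 and loading replicates 2 and 3 in row 2. The row as a block leaves loading replicate 1 as the only array compared within a row. The change was then 0.92 for miR-17-5p, 0.32 for miR-19b and 0.30 for miR-93. For miR-20a it was 0.13, for miR-106b 0.12, for miR-92a 0.096 and for miR-25 0.064. With the column as a random block it was 0.29 for miR-17-5p, 0.083 for miR-19b, 0.039 for miR-92a, 0.058 for miR-106b and 0.094 for miR-93, and 0 members passed an adjusted p of 0.05 in limma with either block.

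**Figure D3:**
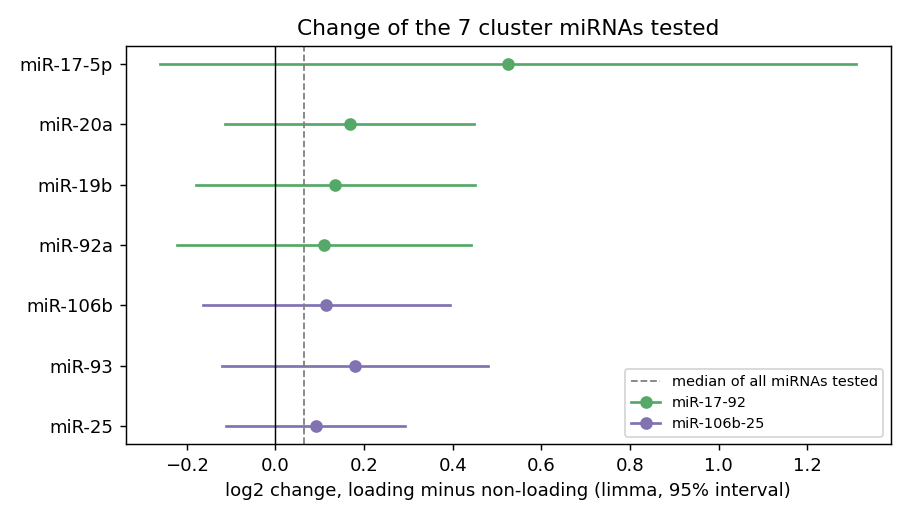
Log2 change of the 7 members tested (loading minus non-loading, points) with the 95% interval from limma, miR-17-92 in green and miR-106b-25 in purple. Every interval included 0, and that of miR-17-5p was the widest, from -0.26 to 1.31.

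The members also shared differences between single arrays. On non-loading replicate 3 all 7 tested members were below their own mean over the arrays, by a median of 0.28 on the log2 scale, and it was the lowest array for 6 of them. Over all 148 miRNAs the median deviation on that array was -0.14. After scaling, the array as a whole thus stood lower than the other 5, whose medians lay between 0.020 and 0.075. It was not a dim array, since the percentile it was divided by was the highest of all, 362 intensity units against 263 to 324. How far the scaling accounts for the low values on this array was not tested. On non-loading replicate 2 and on loading replicate 1 all 7 members were above their mean, with medians of 0.06 on both. Without non-loading replicate 3 the median change of the members was 0.07 and that of all miRNAs 0.0027, and the changes were 0.26 for miR-17-5p, 0.12 for miR-19b, 0.08 for miR-93, 0.07 for miR-20a, 0.04 for miR-25, 0.0075 for miR-106b and -0.03 for miR-92a. Without non-loading replicate 2 the median was 0.22 for the members and 0.09 for all miRNAs. The groups, now 2 arrays against 3, then did not overlap for miR-19b, miR-20a, miR-25 and miR-93, as for 44 of all 148 miRNAs (29.7%). In limma 0 members passed an adjusted p of 0.05 without either array.

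**Figure D4:**
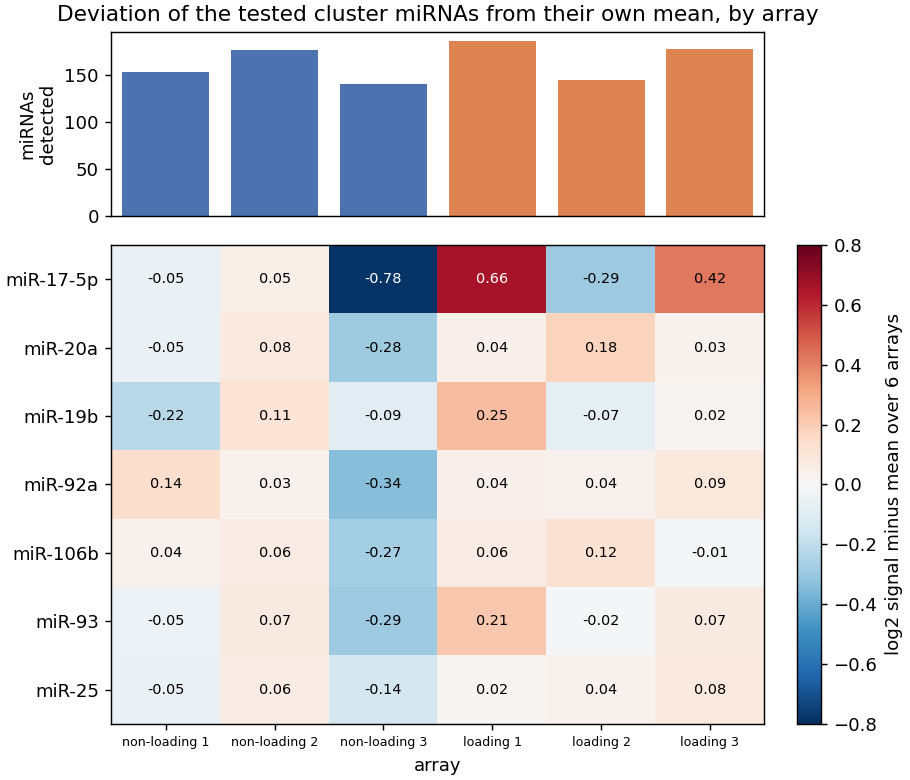
Log2 signal of each tested member on each array minus its mean over the 6 arrays (colour and printed value, lower panel), below the number of miRNAs detected on that array (bars). The third non-loading column is negative in every row, and miR-17-5p has the widest spread, from -0.78 to 0.66.

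To ask whether cluster mates kept their proportions, the log2 ratio of each pair was taken within each array, where the scale of the array cancels. Each miR-17-92 pair includes miR-17-5p, miR-19b or miR-92a, which are also encoded in the cluster on chromosome X. The ratios of these pairs can therefore mix precursors and cannot show the proportions within miR-17-92 alone. Of the 9 pairs, 0 separated the groups, beside 16.3% of all pairs of the 148 miRNAs, and exact permutation p-values ran from 0.3 to 1 (two-sided, 0.9 to 1 after Benjamini-Hochberg adjustment over the pairs). In miR-106b-25 the ratio of miR-106b to miR-93 changed by -0.06, that of miR-106b to miR-25 by 0.02 and that of miR-93 to miR-25 by 0.09. Over all 6 arrays the ratio of miR-106b to miR-25 stayed within a range of 0.22 on the log2 scale. In miR-17-92 the ratios among miR-20a, miR-19b and miR-92a changed by 0.03 to 0.06, and over the arrays they ranged more widely, up to 0.62 for miR-19b to miR-92a. The 3 ratios with miR-17-5p changed by 0.36 to 0.42 and spanned 1.06 to 1.12 over the arrays. When loading replicate 2 was left out, these 3 and that of miR-106b to miR-93 separated the groups, as did 31.8% of all pairs. miR-17-5p itself then separated them too, as did 48 of 148 miRNAs (32.4%), with a change of 0.80 (limma, unadjusted p = 0.0359, adjusted p = 0.501), and 14 of 148 miRNAs had an unadjusted p under 0.05.

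Seen by seed family across both clusters, the AAAGUGC members miR-17-5p, miR-20a, miR-106b and miR-93 had changes of 0.52, 0.17, 0.11 and 0.18, and the AUUGCAC members miR-92a and miR-25 changes of 0.11 and 0.09. Whether relatives from different clusters differed in their change was not tested. RefSeq held 1 further miRNA with the seed AAAGUGC and 3 with AUUGCAC. The first, miR-20b-5p from the cluster on chromosome X, was detected on all arrays and is shown for comparison, since it differed from miR-20a at 2 of 23 bases.
rno-miR-20b-5p: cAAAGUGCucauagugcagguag
It gave 8.54%, 8.65% and 6.21% in non-loading and 9.21%, 8.08% and 7.98% in loading rTDSCs, again with the lowest value on non-loading replicate 3, and it differed by 0.12 on the log2 scale (standard error 0.15, adjusted p = 0.736 in limma). miR-363, which lies in the same cluster, miR-92b and miR-32, which share AUUGCAC, were not detected on any array.

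The other arms of the hairpins, most of which are degraded after the hairpin is opened, gave almost no signal. Of the 12 on the array, 0 were detected on any array, and 10 of their 1440 spots were well above background. Of the 4 miRNAs of the paralogous cluster that the array listed under their own names, miR-20b-5p was the one detected.

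The miRNAs whose profile over the 6 arrays was closest to that of a member were found from the root mean square difference of log2 signals, each centred on its own mean. The profile of miR-20a was closest to that of miR-106b (0.047), ahead of miR-15b (0.069) and miR-196b (0.069). That of miR-106b was closest to miR-15b (0.037) and then to miR-20a (0.047), followed by miR-30d (0.060). How far the likeness of miR-20a and miR-106b reflects shared probe binding was not tested. The profile of miR-93 was closest to its family mate miR-20b-5p (0.074), then to miR-30a and miR-425. miR-25 was closest to miR-28 (0.021), miR-22 (0.023) and miR-181a (0.041). miR-92a was closest to miR-30d, miR-188 and miR-15b, and miR-19b to miR-140, miR-99b and miR-29b, with differences from 0.067 to 0.079. miR-17-5p had a wider profile, and its nearest were miR-223 (0.22), miR-126 (0.22) and miR-31* (0.23). miR-223 is a blood and miR-126 an endothelial marker. miR-223 gave 6.58%, 8.07% and 4.48% without and 8.75%, 7.28% and 8.65% with loading, and miR-126 gave 4.91%, 4.59% and 2.77% without and 5.05%, 3.91% and 5.36% with loading. For both the groups overlapped, and the log2 change was 0.40 for miR-223 and 0.25 for miR-126 (adjusted p = 0.709 and 0.724 in limma). The other blood markers on the list, miR-451, miR-144, miR-142-3p, miR-142-5p and miR-150, were not detected on any array. The 6 blood markers together summed to -5.64% to 5.44% without and 1.67% to 6.46% with loading. These sums include miR-144, miR-142-5p and miR-150, which were negative on every array after background subtraction, so they do not measure an amount of blood cells. The part of other cells in the values of miR-17-5p was not tested. Of the 21 places among the nearest profiles 2 were taken by other members, 9.52%, where the other members made up 4.08% of the miRNAs available. Both places belong to the pair of miR-20a and miR-106b, counted from either side. They are thus a single likeness, and the share cannot show that members resemble each other more than other miRNAs do. The arrays share the slide and a scale factor each, so the likeness is a description of these 6 arrays.

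As a counterpart, 9 miRNAs known to restrain the cell cycle were read on the same arrays, of which 8 were tested and miR-503 was detected on 3 arrays. In limma 0 of the 8 passed an adjusted p of 0.05, beside 0 of 148 miRNAs. An unadjusted p under 0.05 was reached by 1, miR-322, beside 14 of 148 (9.46%). The groups did not overlap for 2, miR-322 and miR-16, beside 23 of 148 (15.5%). Their median log2 change was -0.0024, with 4 higher and 4 lower under loading. miR-322, known to restrain cyclins and CDC25A, gave 36.9%, 40.9% and 37.9% without and 45.1%, 44.0% and 44.1% with loading, higher by 0.20 on the log2 scale (standard error 0.08, adjusted p = 0.486 in limma), and its groups did not overlap. miR-16, which is known to repress cyclins D and E, gave 865%, 804% and 816% without and 741%, 800.4% and 802% with loading, a difference of -0.08 (standard error 0.08, adjusted p = 0.724 in limma). Its groups were apart only narrowly, with 803.6% as the lowest non-loading and 802.4% as the highest loading value. The remaining changes lay between -0.12 for miR-34a and 0.13 for miR-34c.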

How the data were processed

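The authors deposited the spot tables that Feature Extraction writes (10.7.3.1 per the file headers), where the intensity of each spot is background-subtracted but not scaled between arrays, with 0 or 1 flags (unit: other) for outliers, saturation and detection. Their value table repeats these intensities (differences of at most 0). Control and outlier-flagged spots were omitted, the 13540 spots were averaged over 1644 probes, and arrays were scaled to the 75th percentile of the 173 probes that had at least 50% of spots well above background on all 6 arrays. Probes were summed per miRNA, a floor of 1.87% (1st percentile of detected miRNAs) was applied, which no tested member reached, and log2 was taken. The 148 miRNAs detected on all arrays of 1 group or both were fitted with limma 3.58.1 in R 4.3.3 with Benjamini-Hochberg adjustment. limma was tested on simulated data. Array names were matched to RefSeq mature names (13 of 13), by hand where they gave no arm. All members, the lists fixed for them and the 3 nearest profiles of each are named. The members, lists and alternatives were chosen with earlier results of these data known. The alternatives varied background correction, scaling, probe summary, floor, filters, test, blocks and arrays. The number of arrays limits the precision.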

Additional observations from a re-analysis of the deposited data

How the results depend on the processing

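No member passed an adjusted p of 0.05 in limma under any alternative run or with an array left out, nor in the methods' test, which was run on the main values alone. Normexp correction moved the median change over the array to -0.45 and that of the members to -0.36, with -0.57 for miR-17-5p, -0.34 for miR-20a, -0.30 for miR-19b, -0.41 for miR-92a, -0.34 for miR-106b, -0.48 for miR-93 and -0.36 for miR-25. With the 75th percentile over all probes, which moved the median of all miRNAs to -0.090, the members' median was -0.019, with -0.019 for miR-19b, -0.045 for miR-92a, -0.040 for miR-106b and -0.063 for miR-25. Quantile normalization put miR-25 at -0.0056, and without non-loading replicate 3 miR-92a was at -0.033 (0.21 without non-loading replicate 1). The cause was not tested. With normexp after replacing outlying background values the median was 0.065. Over the 19 alternatives with all arrays kept, the change of miR-17-5p ran from -0.57 to 0.92 and was positive in 18. For example, it was 0.065 with normexp after that replacement and 0.18 with the mean of log2 probe signals. Quantile normalization gave 0.31, and keeping outlier-flagged spots gave 0.61. The number of members without overlap of the groups was 0 in the main setting. It was 1 with all probes, miR-17-5p, which was itself the 1 of all 148 miRNAs that separated (0.676%). With arrays centred on their median it was 1 (miR-92a, beside 16.2% of all miRNAs). With an array left out it ran from 0 to 4, beside 22.3% to 32.4% of all miRNAs, the number of cluster mate pairs without overlap from 0 to 4, beside 22.5% to 31.8% of all pairs, and the members' median change from 0.069 to 0.22. The labels do not say whether an equal replicate number marks a shared origin. Between arrays of equal number the deviations had correlations of -0.69, -0.47 and 0.11. These cannot decide the question, because differences of whole arrays enter them. With the replicate block 0 members passed an adjusted or unadjusted p of 0.05 in limma and the median change stayed at 0.14. Without the filter on detection 223 miRNAs entered the fit, as the rest were at the floor on every array. The value table of the series gives the same values and was not run, and slide and scan could not be a block, as there was 1 of each. Row and column on the slide were run as blocks. Signal over background limits miR-17-5p, miR-18a and miR-19a.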
